A study of Mus musculus with 16 samples.

Results

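Imprinted genes are transcribed mainly from the copy inherited from one parent. The set described here holds 34 of them, chosen by symbol from a list of known mouse imprinted loci. All 34 had a row in the table of 52459 genes. It holds 14 genes listed as expressed from the maternal copy and 20 listed as expressed from the paternal copy. Which copy was in use here was not measured. Read counts do not separate the parental copies, so each value is the sum over both. RNA was sequenced from bone marrow mesenchymal stromal cells of Townes mice, a knock-in model of sickle cell disease. Sorting kept live single cells that carried CD51 and CD140a and lacked the blood and vessel markers CD45, Ter119 and CD31. In both groups the human α-globin gene replaces the mouse α-globin genes (hα/hα). The 4 SS mice carry the sickle β-globin, linked to the human Aγ gene, on both chromosomes (βS/βS). The 4 SA mice carry 1 sickle and 1 normal human β-globin (βA/βS), so the controls also carry a sickle allele. The labels used here give no age. The question was whether imprinted genes differ between SS and SA stromal cells, and whether the genes of the Meg3 cluster move as one.

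Each mouse gave 1 library, sequenced on 2 lanes, with 24797857 to 31117007 counted reads. Stromal markers were present in every library, none of 10 being at 0. Their summed level spanned 14762 to 32013 CPM in SA mice and 21746 to 31328 in SS mice. CPM is the read count divided by the library total after edgeR's TMM scaling, scaled to 1000000 reads. Of the other marker lists, the B cell, fibroblast, and pericyte and smooth muscle sums did not overlap between genotypes. The sums of the remaining lists overlapped. All 15 leukocyte genes had a lower mean in SS, with summed levels of 370 to 3107 CPM there and 828 to 5155 CPM in SA mice, and Ptprc, which encodes the CD45 of the sort gate, was among them. The 8 pericyte and smooth muscle genes were all higher in SS, with sums of 1082 to 5994 CPM against 531 to 631 CPM in SA mice and the top value in SS mouse 4. The fibroblast list summed to 3591 to 6140 CPM in SS mice against 1831 to 2998 CPM in SA mice, with 8 of its 9 tested genes higher in SS and Clec3b at 0 in some libraries. B cell genes were lower in SS in 10 of 10, with sums of 396 to 416 CPM against 502 to 1548 CPM in SA mice and no overlap. Megakaryocyte genes were lower in 7 of 7 tested and neutrophil genes in 10 of 10, with overlapping sums. Osteoblast genes were lower in 6 of 9 and erythroid genes in 6 of 7, with overlapping sums. Endothelial genes were higher in 5 of 8 and chondrocyte genes in 2 of 3 tested, also with overlapping sums. At an unadjusted edgeR p under 0.05 were 3 osteoblast, 5 B cell, 4 megakaryocyte and 1 erythroid genes, all lower in SS. With SS higher there were 5 fibroblast, 4 pericyte and smooth muscle and 1 stromal genes. No leukocyte, neutrophil, endothelial or chondrocyte gene had such a p. Over all genes 6.98% passed that line in either direction. The part of these lists in the results was tested only for the leukocyte level. In such bulk samples, fewer cells of a type and less RNA per cell cannot be told apart. SS mouse 2 was the only library with high Xist and few Ddx3y reads, as in a female. Number strings in the sample titles that look like dates are shared by all SA mice and differ in SS mice, with SS mouse 2 alone in one string, so they cannot be told apart from genotype. One of the 2 lanes of SS mouse 4 is titled SS but carries an SA label in other fields, and the library was kept in SS by its title.

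Imprinting rests mainly on DNA methylation laid down in the egg or sperm at control regions, which silences or activates neighbouring genes on that chromosome only. Many imprinted genes act on growth: those expressed from the paternal copy often promote it, and those from the maternal copy often restrain it. In the Dlk1-Dio3 locus on chromosome 12, the maternal copy gives Meg3, Rian and Mirg, noncoding RNAs that are transcribed in the same direction and carry small nucleolar RNAs and microRNAs, while the paternal copy gives the protein genes Dlk1 and Rtl1.

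The start regions of Meg3 and Rian, the cluster genes read in every library, are shown to set the pair side by side. Each is the RefSeq window of 300 bases, 250 before to 50 after the annotated start, on the plus strand of GRCm38.p6, at chr12:109540746-109541045 for Meg3 and chr12:109603695-109603994 for Rian. Where RefSeq lists several starts, as for Meg3, the most upstream is used. Capitals mark matches on either strand to 4 motifs: TGACGTCA (the cyclic AMP response element), TATAAA (a core promoter signal), CCAAT (bound by the factor NF-Y) and TGCCGC (bound by ZFP57, a keeper of imprints, when methylated).
Meg3: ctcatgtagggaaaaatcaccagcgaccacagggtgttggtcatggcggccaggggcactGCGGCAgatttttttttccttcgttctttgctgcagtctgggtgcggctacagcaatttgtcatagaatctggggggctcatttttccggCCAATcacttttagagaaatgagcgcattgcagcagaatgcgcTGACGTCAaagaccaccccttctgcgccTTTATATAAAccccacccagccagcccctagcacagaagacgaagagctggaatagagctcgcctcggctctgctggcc
Rian: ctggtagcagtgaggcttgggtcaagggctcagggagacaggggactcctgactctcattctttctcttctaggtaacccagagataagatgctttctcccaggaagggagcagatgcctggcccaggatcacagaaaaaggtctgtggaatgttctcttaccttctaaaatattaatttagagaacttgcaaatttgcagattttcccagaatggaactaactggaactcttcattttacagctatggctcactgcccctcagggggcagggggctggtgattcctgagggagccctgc
The Meg3 window held all 4 motifs: TGCCGC on the minus strand at position -190 from the start, CCAAT at -100, TGACGTCA at -57, and overlapping TATAAA matches on the minus strand at -29 and on the plus strand at -25. It also held 13 CpG dinucleotides at 53.7% GC. The Rian window held none of the 4 motifs and 0 CpG, at 49.3% GC. Of 32851 RefSeq windows of this length, 1.79% held TGACGTCA, 13.6% TATAAA, 37.4% CCAAT and 11.6% TGCCGC. A match describes the letters and does not show a site in use.

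Meg3 was higher in every SS mouse than in every SA mouse, but the difference did not pass the test. The gene lies at chr12:109541001-109571726 on the plus strand (GRCm38, GENCODE M21). It was at 4.85, 4.62, 1.51 and 0.846 CPM in SA mice 1 to 4 and at 5.28, 31.2, 5.55 and 29.3 CPM in SS mice 1 to 4. SS mice 2 and 4 stood far above the other 6 libraries, and SS mice 1 and 3 lay just above the top SA value. The means were 17.8 ± 14.4 CPM in SS and 2.96 ± 2.07 CPM in SA (SD, n = 4 each). The log2 fold change was 2.59 (SE 0.81), with an edgeR quasi-likelihood adjusted p of 0.686 and a DESeq2 adjusted p of 0.0551. With the leukocyte level as a covariate it was 1.95, and without the 3 libraries of highest leukocyte level, SA mice 1 and 2 and SS mouse 1, it was 4.22.

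Rian, which hosts a row of small nucleolar RNAs 3′ of Meg3, had another pattern. At chr12:109603940-109661716, it was at 9.47, 10.6, 0.535 and 4.16 CPM in SA mice 1 to 4 and at 3.84, 5.68, 3.11 and 44.2 CPM in SS mice 1 to 4. The groups overlapped, SS mouse 4 stood alone at the top, and SA mice 1 and 2 were above SS mice 1, 2 and 3. Its log2 fold change of 1.20 (SE 1.02, edgeR adjusted p 0.827) turned to -0.55 without SS mouse 4. With the leukocyte covariate it was 0.075. SS mouse 4 was also the library with the highest pericyte and smooth muscle level, whose part in the result was not tested.

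The other 3 genes of the cluster had at least 3 libraries with no read and did not pass the filter on low counts. Mirg, which hosts a group of microRNAs, had 16 reads in SA mouse 4 and none in the other SA mice, and 5, 0, 100 and 51 reads in SS mice 1 to 4. In SS mouse 3 it had more reads than Rian, which had 88. Rtl1, a protein gene derived from a retrotransposon, had 40 reads in SS mouse 1 and 18 in SS mouse 4, and 0 in the other 6 libraries. Dlk1, a membrane protein known to restrain adipocyte formation, had 2 reads each in SA mice 1 and 4, 1 in SS mouse 4 and 0 elsewhere. A count of 0 allows up to 3 counts, or 0.0967 to 0.113 CPM across these libraries, for counting error alone. At this depth Dlk1 was thus not measurable in either genotype, while Meg3 and Rian were read in all 8 libraries.

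**Figure D1:**
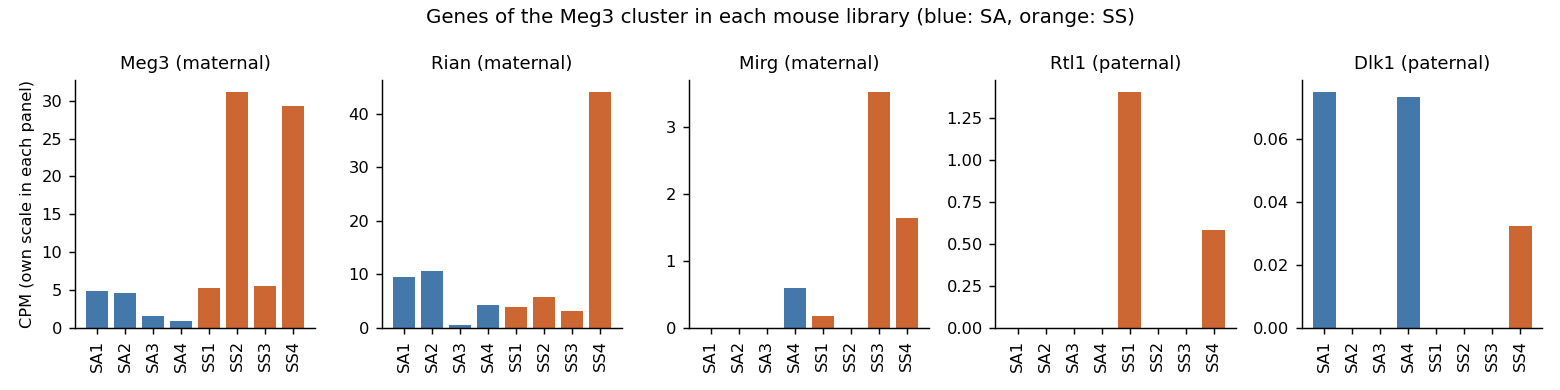
CPM of the 5 genes of the Meg3 cluster in each of the 8 mouse libraries (blue SA, orange SS), 1 panel a gene with its own vertical axis. Meg3 is high in SS mice 2 and 4, at 31.2 and 29.3 CPM, while Rian is high in SS mouse 4 alone, at 44.2 CPM.

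The read ratio of Rian to Meg3 shows how far the pair kept step. There were 1.95, 2.29, 0.356 and 4.91 Rian reads for each Meg3 read in SA mice 1 to 4 and 0.727, 0.182, 0.561 and 1.51 in SS mice 1 to 4. The highest ratio was 27.0 times the lowest, and SS mice 2 and 4, with nearly equal Meg3, differed in Rian by 157 against 1371 reads. The mean log2 ratio was 0.74 ± 1.52 in SA and -0.78 ± 1.26 in SS (SD, n = 4 each), a difference of -1.52 (exact permutation test over 70 arrangements, two-sided p = 0.2, with 0.0286 the smallest it allows). Across the 8 libraries the log2 ratio had an SD of 1.52, against 1.78 for log2 Meg3 and 1.76 for log2 Rian. For unrelated genes the SD of the ratio would be expected to exceed both, so the pair kept step in part.

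Meg3 and Rian correlated positively between mice, but the correlation did not pass the test. Pearson's r of log2 CPM was 0.629 over 8 libraries (exact permutation p = 0.0864, Benjamini-Hochberg 0.179 over 12 pairs of neighbouring genes) and Spearman's rho 0.286 (exact permutation p = 0.501, adjusted 0.601). Leaving out SS mice 2 and 4, the libraries farthest from the median of Meg3, r was 0.470. Without SS mouse 4 alone it was 0.417, and without SS mouse 2 alone 0.752. Centred within genotype it was 0.652, and relative to the stromal markers 0.699 (exact permutation p = 0.0511, unadjusted). Among 17315 other genes ranked by r with Meg3, Rian stood at 684. Of the other tested members of the set, Impact ranked above it, at 225 with r = 0.741.

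The 10 genes whose pattern was most like that of Meg3 had r between 0.909 and 0.943 over the 8 libraries. They were Coq7, Yipf3, Micu2, Nov, Tnfrsf10b, Zfp146, Nono, Gm11945, Cbr4 and Ifit3, none of them in the locus. These values describe 8 points that share the pair of high Meg3 libraries and carry no test.

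Between the start of Meg3 and the end of Mirg, the table had 96 further annotated rows, mostly precursors of microRNAs (66) and small nucleolar RNAs (23). Of the 96, 21 had any read, and 12 of these had reads in 1 library only. The kit was one for total RNA, and whether such reads come from longer transcripts that span these rows was not tested. The row that passed the low-count filter was Gm37899, an unclassified transcript at chr12:109668869-109677585, between Rian and Mirg on the same strand. It was singled out after its values were seen and passed the filter only through the SS mice, so its difference is given as a description with no test. It had 0, 0, 1 and 0 reads in SA mice 1 to 4 and 37, 16, 33 and 206 reads in SS mice 1 to 4. All SS mice lay above all SA mice, and SS mouse 4 held 206 of the 292 SS reads.

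Of the 66 microRNA rows, 4 had over 10 reads, 3 of them named precursors and the other Gm23912. Mir493, between Meg3 and Rtl1, had 45 reads in SS mouse 1 and 0 in the other 7 libraries. Mir665 had 14 reads in SS mouse 2, 13 in SS mouse 3 and 1 in SA mouse 2. Mir370, inside Rian, had 45 reads in SS mouse 4 and 7 in SA mouse 2. Each of the 3 had its reads in a different set of SS mice. Their mature forms, from RefSeq on GRCm38.p6, are printed to show what these precursors yield, with the seed (bases 2 to 8) in capitals, and no seed is shared between them.
miR-493-5p: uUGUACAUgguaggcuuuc
miR-493-3p: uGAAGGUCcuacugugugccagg
miR-665-5p: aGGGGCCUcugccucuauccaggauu
miR-665-3p: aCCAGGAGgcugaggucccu
miR-370-5p: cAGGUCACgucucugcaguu
miR-370-3p: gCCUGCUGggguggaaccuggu
The labels give no small RNA library, and the mature forms themselves were not measured.

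The genes that flank the locus gave a comparison outside it, and whether any of them is imprinted was not examined. Of 14, 13 were tested: 7 were higher and 6 lower in SS, with a median log2 fold change of 0.013. Dync1h1, the dynein heavy chain, had the smallest p, with 525 ± 89.0 CPM in SS mice against 379 ± 54.3 CPM in SA mice and a log2 fold change of 0.47 (edgeR adjusted p 0.695). Slc25a47 (log2 fold change 2.19, edgeR adjusted p 0.8) and Mok (1.71, adjusted p 0.827) followed, with no library above 4.85 and 5.19 CPM.

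**Figure D2:**
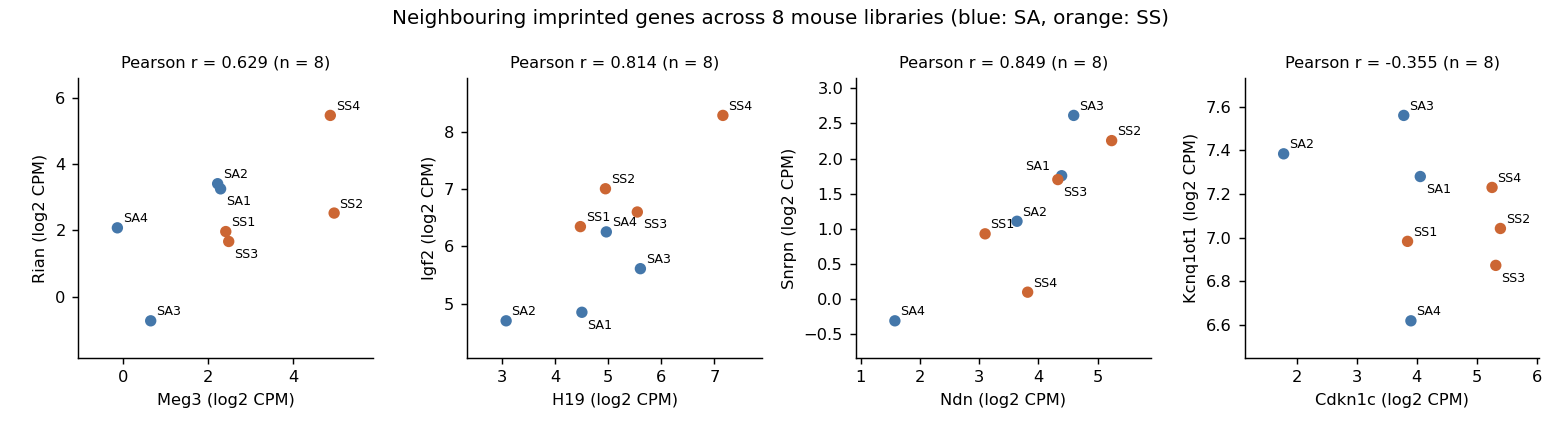
Log2 CPM of 4 pairs of neighbouring imprinted genes, 1 point a mouse library (blue SA, orange SS), with Pearson's r over 8 libraries above each panel. Meg3 and Rian part in SS mouse 2, where Meg3 is high and Rian is not, while Ndn and Snrpn lie closest to a line, with r = 0.849.

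Of the 34 imprinted genes, 25 passed the low-count filter and were tested for SS against SA. None was called by edgeR at an adjusted p under 0.05, as was none of all 17316 genes tested (0%). At an unadjusted p under 0.05 there were 5 imprinted genes, Meg3, Igf2, Igf2r, Cdkn1c and Plagl1, all higher in SS. Over all genes 6.98% passed that line in either direction and 4.03% with SS higher. The count of 5 was 2 with the leukocyte covariate, 8 without SA mouse 4 and 4 to 6 under the other edgeR settings that kept the low-count filter. DESeq2 called 2, Igf2 and Plagl1, both higher in SS, of 28 with an adjusted p, against 1.62% of all genes in either direction and 0.914% with SS higher. In 4 genes the genotypes did not overlap in CPM, with SS higher in Meg3, Igf2 and Plagl1 and lower in Peg13. Such genes made up 3.91% of all tested, 2.36% with SS higher.

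In direction, 18 of the 25 were higher and 7 lower in SS, with a median log2 fold change of 0.53. Over all 17316 genes the median was -0.014 and 49% were higher. The 10 tested genes of maternal expression had 8 higher and a median of 0.79, and the 15 of paternal expression had 10 higher and a median of 0.37. The difference between these medians was not tested. The median over the 25 was 0.12 with the leukocyte covariate (15 higher), 0.35 without the 3 leukocyte-rich libraries (16 higher) and 0.265 without SS mouse 4 (17 higher). It was 0.817 without SA mouse 4 (19 higher).

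**Figure D3:**
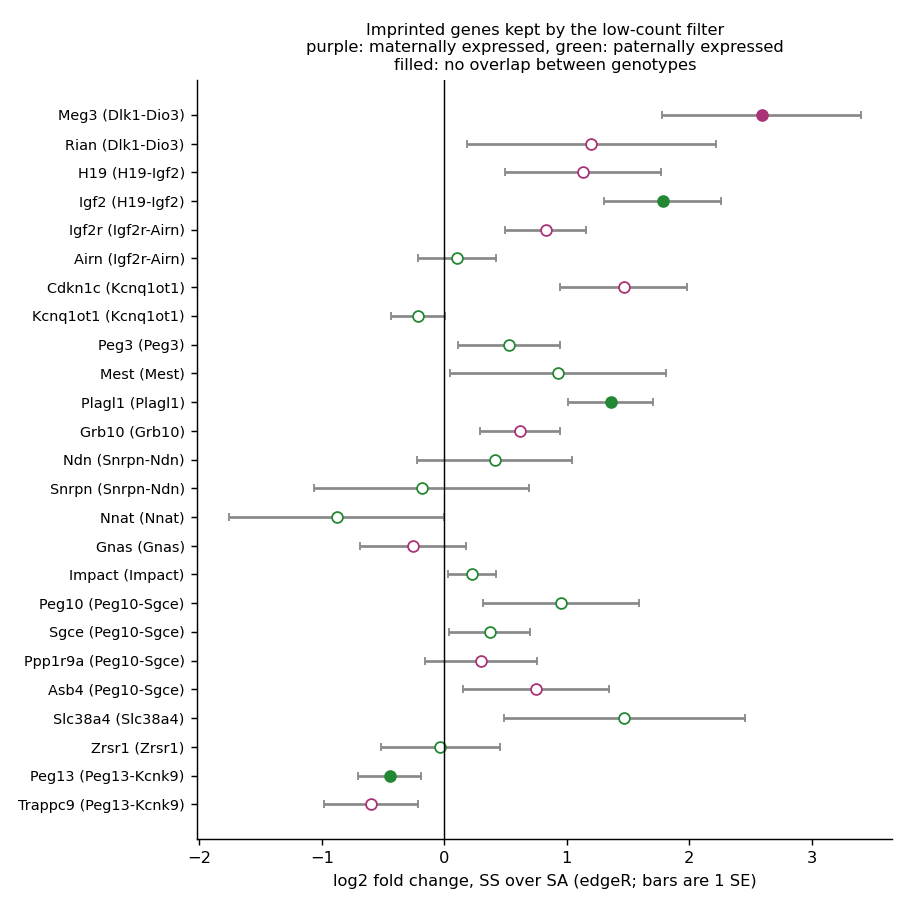
Log2 fold change of SS against SA with its standard error for the 25 imprinted genes that passed the low-count filter, from edgeR, purple for maternal and green for paternal expression, filled where the genotypes do not overlap. Of these, 18 lie above 0, from Meg3 at 2.59 downwards, and none passed the adjusted threshold.

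Igf2, the insulin-like growth factor that drives fetal growth, was 3.44 times as abundant in SS as in SA, called by DESeq2 but not by edgeR. The gene lies at chr7:142650766-142666816 on the minus strand. It was at 28.8, 25.9, 48.8 and 76.2 CPM in SA mice 1 to 4 and at 81.2, 128, 97 and 312 CPM in SS mice 1 to 4. Every SS mouse was above every SA mouse, with SS mouse 4 far above the rest. The means were 154.7 ± 106.7 CPM in SS and 44.9 ± 23.2 CPM in SA (SD, n = 4 each). The log2 fold change was 1.78 (SE 0.48), with an edgeR adjusted p of 0.595 and a DESeq2 adjusted p of 0.046. Without SS mouse 4 it was 1.19, with the leukocyte covariate 0.996 and without the leukocyte-rich libraries 1.52.

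H19, the noncoding RNA that shares enhancers with Igf2 and is made from the other parental copy, lies at chr7:142575529-142578143. It was at 22.6, 8.37, 48.7 and 31.2 CPM in SA mice 1 to 4 and at 22.2, 30.8, 46.8 and 143 CPM in SS mice 1 to 4. The groups overlapped, and the SS mean rested on SS mouse 4. Its log2 fold change of 1.13 (SE 0.64, edgeR adjusted p 0.752) was 0.265 without that mouse. It was 0.129 with the leukocyte covariate and 0.884 without the leukocyte-rich libraries. Between mice, H19 and Igf2 had r = 0.814 (exact permutation p = 0.0192, adjusted 0.115) and rho = 0.571 (exact permutation p = 0.151, adjusted 0.453). Leaving out SA mouse 2 and SS mouse 4, the libraries farthest from the median of H19, r was 0.222 and the relation no longer held. Without either alone it was 0.736 and 0.608, and centred within genotype 0.823.

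Igf2r, the receptor that binds IGF2 and carries it to lysosomes, is expressed from the maternal copy at chr17:12682406-12769664. It was at 100.1, 58.7, 165 and 104 CPM in SA mice 1 to 4 and at 112, 219.8, 186 and 242 CPM in SS mice 1 to 4. SS mice lay above SA mice except for SS mouse 1, which was below SA mouse 3. The log2 fold change was 0.83 (SE 0.33, edgeR adjusted p 0.695). It was 0.372 with the leukocyte covariate and 0.68 without the leukocyte-rich libraries. Airn, the noncoding RNA that silences Igf2r on the paternal copy and runs antisense to it, was at 39.7, 30.4, 66.7 and 54 CPM in SA mice 1 to 4 and at 35.9, 57.6, 70 and 41.2 CPM in SS mice 1 to 4. Its log2 fold change was 0.10, and the groups overlapped. The pair had r = 0.633 (exact permutation p = 0.0897, adjusted 0.179), rho = 0.595 (exact permutation p = 0.132, adjusted 0.453) and r = 0.728 without SA mouse 2 and SS mouse 4. Without SA mouse 2 alone r was 0.379, and relative to the stromal markers 0.215.

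Plagl1, a zinc finger transcription factor known to activate other imprinted genes, lies at chr10:13060504-13131694. It was at 60.4, 35.7, 86.8 and 75.3 CPM in SA mice 1 to 4 and at 125, 234, 208 and 95.2 CPM in SS mice 1 to 4. All SS mice were above all SA mice, by the narrowest margin between SS mouse 4 and SA mouse 3. The means were 165.5 ± 65.9 CPM in SS and 64.5 ± 22.1 CPM in SA. It had a log2 fold change of 1.36 (SE 0.35), with an edgeR adjusted p of 0.560 and a DESeq2 adjusted p of 0.0473. It stayed between 1.15 and 1.55 with each library left out in turn, at 1.17 with the leukocyte covariate and at 1.14 without the leukocyte-rich libraries. Unlike Igf2, its top value was not in SS mouse 4.

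Cdkn1c, the cyclin-dependent kinase inhibitor p57 that restrains the cell cycle, lies at chr7:143458339-143461050. It was at 16.6, 3.37, 13.7 and 14.9 CPM in SA mice 1 to 4 and at 14.3, 41.9, 39.7 and 38 CPM in SS mice 1 to 4. SS mice 2, 3 and 4 were close together and above every SA mouse, while SS mouse 1 lay within the SA range. The log2 fold change was 1.47 (SE 0.52), with edgeR and DESeq2 adjusted p of 0.695 and 0.169, and 0.942 with the leukocyte covariate. SS mouse 1 had the highest leukocyte level of the SS libraries, at 3107 CPM. Without it and the other leukocyte-rich libraries the log2 fold change was 1.48. Whether its leukocyte level sets SS mouse 1 apart in Cdkn1c was not tested. Kcnq1ot1, the long RNA from the paternal copy that silences Cdkn1c in cis, was at 155, 167, 189 and 98.2 CPM in SA mice 1 to 4 and at 126, 132, 117 and 150.1 CPM in SS mice 1 to 4. It overlapped between genotypes (log2 fold change -0.21). Its r with Cdkn1c was -0.355 (exact permutation p = 0.388, adjusted 0.466) and rho -0.476 (exact permutation p = 0.243, adjusted 0.459), and r was -0.116 without SA mouse 2 and SS mouse 2. Phlda2, which limits placental growth and lies in the same domain, had 1 read in all, in SS mouse 2.

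Grb10, an adaptor that dampens insulin and IGF receptor signalling, was at 96.3, 105, 220.1 and 251 CPM in SA mice 1 to 4 and at 190, 258, 250 and 334 CPM in SS mice 1 to 4. SA mice 1 and 2 were lowest and SA mice 3 and 4 lay within the SS range. This gave a log2 fold change of 0.62, with an edgeR adjusted p of 0.747. It was 0.219 with the leukocyte covariate and 0.252 without the leukocyte-rich libraries.

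**Figure D4:**
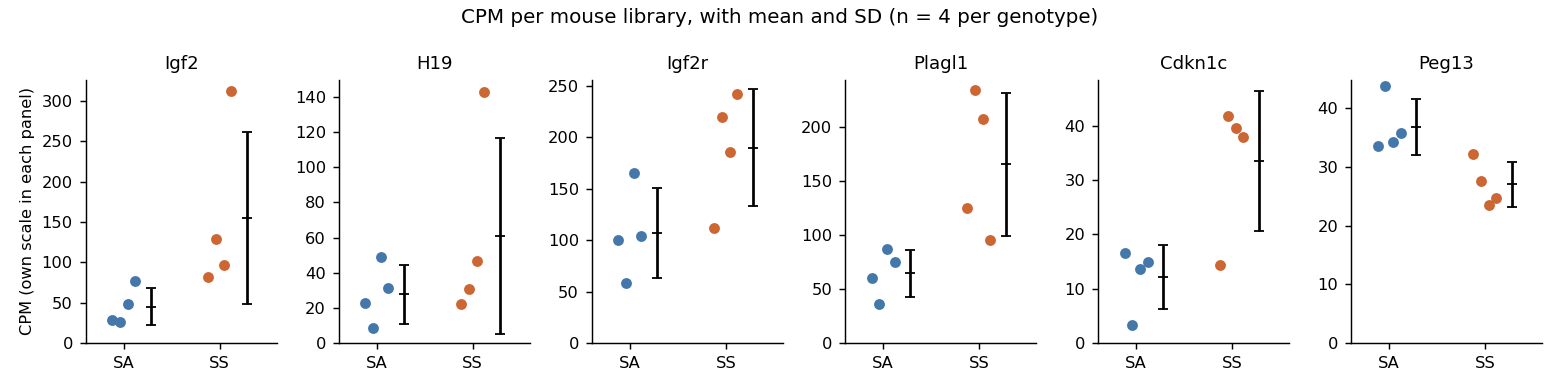
CPM in each mouse library (points, blue SA, orange SS) with the genotype mean and SD (n = 4 each) for Igf2, H19, Igf2r, Plagl1, Cdkn1c and Peg13. Igf2 and Plagl1 do not overlap between genotypes, with SS higher, and Peg13 does not overlap with SS lower, while Cdkn1c overlaps through SS mouse 1.

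Around Peg3 on chromosome 7, neighbours had very unequal levels. Peg3, a zinc finger protein of the paternal copy, was at 20, 15.9, 24.4 and 63.3 CPM in SA mice 1 to 4 and at 46.8, 37.2, 49.2 and 45.2 CPM in SS mice 1 to 4. SA mouse 4 was the highest of all and the other SA mice were below every SS mouse, giving a log2 fold change of 0.53. It was 1.154 without SA mouse 4 and 0.0 without the 3 leukocyte-rich libraries. Usp29, a ubiquitin protease also of the paternal copy, starts next to Peg3 on the other strand and had 1 read in all, in SS mouse 4. The stretch from the RefSeq start of Peg3 to that of Usp29, chr7:6730420-6730582 on GRCm38.p6 (163 bases), is shown because both genes start at its ends. It is written on the plus strand, with CCAAT in capitals at positions 65 and 120 from its first base, and holds 5 CpG.
Peg3 to Usp29: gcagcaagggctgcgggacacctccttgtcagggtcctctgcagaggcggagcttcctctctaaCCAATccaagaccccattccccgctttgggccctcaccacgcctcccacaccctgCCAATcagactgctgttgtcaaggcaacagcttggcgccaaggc
Zim1, a maternally expressed zinc finger gene next to Peg3, had 0, 4, 0 and 419 reads in SA mice 1 to 4 and 28, 0, 173 and 9 in SS mice 1 to 4. It did not pass the filter, and no genotype pattern was visible. Peg3 was thus read in all 8 libraries while Usp29 was not measurable.

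In the Peg10 cluster on chromosome 6, all 4 genes were tested and none stood apart by genotype. Peg10, derived from a retrotransposon, was at 7.52, 5.94, 14.2 and 17.1 CPM in SA mice 1 to 4 and at 9.44, 13.9, 9.51 and 53.9 CPM in SS mice 1 to 4. SS mouse 4 was alone at the top, and the log2 fold change of 0.95 was -0.03 without it. Sgce, the sarcoglycan that starts back to back with Peg10, was at 53.4, 32, 79.6 and 96.3 CPM in SA mice 1 to 4 and at 82.9, 65.2, 75.8 and 114 CPM in SS mice 1 to 4 (log2 fold change 0.37). Peg10 and Sgce had r = 0.787 (exact permutation p = 0.0334, adjusted 0.124), rho = 0.833 (exact permutation p = 0.0154, adjusted 0.0923) and r = 0.644 without SA mouse 2 and SS mouse 4. Ppp1r9a, which encodes the actin-binding neurabin, was at 10.5, 11.6, 9.47 and 7.84 CPM in SA mice 1 to 4 and at 5.78, 10.5, 13.5 and 18.8 CPM in SS mice 1 to 4. Asb4, a substrate adaptor of a ubiquitin ligase, was at 4.59, 4.10, 14.7 and 25.9 CPM in SA mice 1 to 4 and at 16.2, 30.3, 21.4 and 14.7 CPM in SS mice 1 to 4. Their log2 fold changes were 0.30 and 0.75, and both overlapped between genotypes.

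In the Prader-Willi region on chromosome 7, Ndn, a MAGE family protein of the paternal copy, was at 20.9, 12.4, 24.1 and 2.91 CPM in SA mice 1 to 4 and at 8.49, 37.6, 20 and 14 CPM in SS mice 1 to 4. SA mouse 4 was lowest and SS mouse 2 highest, with the rest mixed (log2 fold change 0.41). Snrpn, a spliceosome protein, had lower levels, from 0.736 to 6.06 CPM in SA mice and 1.0 to 4.71 CPM in SS mice. Ndn and Snrpn had r = 0.849 (exact permutation p = 0.00486, adjusted 0.0583) and rho = 0.905 (exact permutation p = 0.00456, adjusted 0.0548), and r = 0.713 without SA mouse 4 and SS mouse 2. Of all 12 neighbour pairs, 10 had a positive r, and this pair had the highest. With 4 pairs at an unadjusted p under 0.05, 0 passed the adjusted threshold. Magel2, a MAGE gene next to Ndn, had no read in any library. Of the Snrpn exon bases, 34.1% are shared with other annotated rows, Snurf among them, so its counts are uncertain.

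Peg13 went the other way. It is a noncoding RNA of the paternal copy at chr15:72805600-72810324, inside an intron of Trappc9. It was at 33.5, 43.8, 34.3 and 35.7 CPM in SA mice 1 to 4 and at 32.2, 27.6, 23.6 and 24.8 CPM in SS mice 1 to 4. Every SS mouse was below every SA mouse, and the libraries of each genotype lay close together. The means were 27.0 ± 3.84 CPM in SS and 36.9 ± 4.75 CPM in SA, with a log2 fold change of -0.45 (SE 0.26, edgeR adjusted p 0.754). Trappc9, a subunit of a vesicle tethering complex, was at 30.4, 28.2, 20.2 and 14.5 CPM in SA mice 1 to 4 and at 15, 18, 9.01 and 19.7 CPM in SS mice 1 to 4. It overlapped (log2 fold change -0.60), and its r with Peg13 was 0.606 (exact permutation p = 0.108, adjusted 0.186), with rho 0.452 (exact permutation p = 0.267, adjusted 0.459), and -0.032 without SA mouse 2 and SS mouse 3. The potassium channel gene Kcnk9, in the same domain, had no read in any library.

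The other members showed no separation by genotype. Mest, a membrane-bound hydrolase of the paternal copy, was at 14, 8.02, 2.71 and 47.3 CPM in SA mice 1 to 4 and at 8.17, 73.5, 10.1 and 45.3 CPM in SS mice 1 to 4. SA mouse 4 and SS mice 2 and 4 were high and the other 5 low, and the log2 fold change of 0.93 was -0.544 with the leukocyte covariate, 2.06 without SA mouse 4 and 0.24 without SS mouse 2. Impact, a regulator of the stress kinase GCN2, was at 70.5, 78.5, 69 and 63.2 CPM in SA mice 1 to 4 and at 75.1, 99.8, 80.4 and 73.2 CPM in SS mice 1 to 4. Its log2 fold change was 0.23. Gnas, which encodes the stimulatory G protein α subunit, was at 17, 16.5, 12.5 and 18.6 CPM in SA mice 1 to 4 and at 10.4, 6.34, 15.3 and 22.1 CPM in SS mice 1 to 4 (log2 fold change -0.26). Zrsr1, related to a splicing factor, was at 15.8, 6.32, 29.3 and 37.5 CPM in SA mice 1 to 4 and at 21.3, 25.7, 17.1 and 23 CPM in SS mice 1 to 4 (log2 fold change -0.03). Slc38a4, an amino acid transporter, ranged from 0.564 to 6.07 CPM in SA mice and 1.45 to 15.1 CPM in SS mice. Its log2 fold change of 1.47 was 0.313 with the leukocyte covariate and 0.928 without the leukocyte-rich libraries. Nnat, a small membrane proteolipid, ranged from 2.18 to 13.2 CPM in SA mice and 0.495 to 6.19 CPM in SS mice (log2 fold change -0.88, and -0.159 without SA mouse 4). Nap1l5 did not pass the filter, with 39 reads in SA mouse 1, 29 in SA mouse 3, 1 in SS mouse 2 and 0 elsewhere.

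Levels between genes can be set side by side only per length, here as mean CPM per kilobase of annotated exon. That length pools every annotated exon of a gene, so it can exceed the length of a single transcript and lower the value. For Meg3 it was 18089 bases and for Rian 18234. In SA the order was led by Grb10 at 18.5 ± 8.69, Impact at 13.7 ± 1.23, Airn at 13.3 ± 4.44, Igf2r at 11.5 ± 4.70 and H19 at 11.3 ± 6.85 (SD, n = 4). In SS it was led by Grb10 at 28.4 ± 6.51, Igf2 at 27.0 ± 18.6, H19 at 24.7 ± 22.7, Plagl1 at 21.2 ± 8.43 and Igf2r at 20.4 ± 6.10. Neighbours in both orders lay within their spread. Meg3 was low on this scale, at 0.163 ± 0.115 in SA and 0.986 ± 0.794 in SS, and Rian was at 0.339 ± 0.257 and 0.779 ± 1.10.

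The spread between mice of 1 genotype differed strongly within the set. In log2 CPM the within-genotype SD was 1.83 for Rian, 1.63 for Mest and 1.32 for Meg3. The median over all genes of similar mean level, taken in 10 equal groups, was 0.861 for Rian and Meg3 and 0.569 for Mest. Impact, at 0.169, and Peg13, at 0.188, lay below their medians of 0.400 and 0.484. In all, 17 of the 25 tested members lay above the median of their group. By construction a median has as many genes above it as below, and the count was not tested.

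A further list of 34 imprinted genes holds no member of the set above. Of 24 tested, 11 were higher and 13 lower in SS, with a median log2 fold change of -0.139. The smallest p belonged to Slc22a18, a transporter gene next to Cdkn1c, with 0.194 ± 0.277 CPM in SS mice against 1.95 ± 1.19 CPM in SA mice (log2 fold change -3.299, edgeR adjusted p 0.695). Sfmbt2, a Polycomb-associated protein gene of the paternal copy, was at 12.8, 9.55, 10.4 and 8.02 CPM in SA mice 1 to 4 and at 3.28, 4.71, 3.99 and 0.129 CPM in SS mice 1 to 4. Every SS mouse was below every SA mouse (log2 fold change -1.75, SE 0.83, edgeR adjusted p 0.729). Ube3a, a ubiquitin ligase, had a log2 fold change of 0.34.

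Genes that set or keep imprints, 22 in the list and 20 tested, were lower in SS in 14 and higher in 6, with a median log2 fold change of -0.163. Ehmt2, the histone H3 lysine 9 methyltransferase G9a, was at 39.2, 29.8, 61.3 and 75.4 CPM in SA mice 1 to 4 and at 28.6, 25.5, 25 and 23.8 CPM in SS mice 1 to 4. All SS mice were below all SA mice and lay within a narrow range. The means were 25.7 ± 2.06 CPM in SS and 51.4 ± 20.7 CPM in SA, and the log2 fold change was -1.0 (SE 0.32, edgeR adjusted p 0.695, DESeq2 adjusted p 0.0996). Of the Polycomb repressive complex genes, Suz12 was at 72.3 ± 17.3 CPM in SS and 106.4 ± 21.6 CPM in SA, and Ezh2 at 54.0 ± 13.4 and 79.5 ± 22.2 CPM, each with a log2 fold change of -0.56 that did not pass the test.

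**Figure D5:**
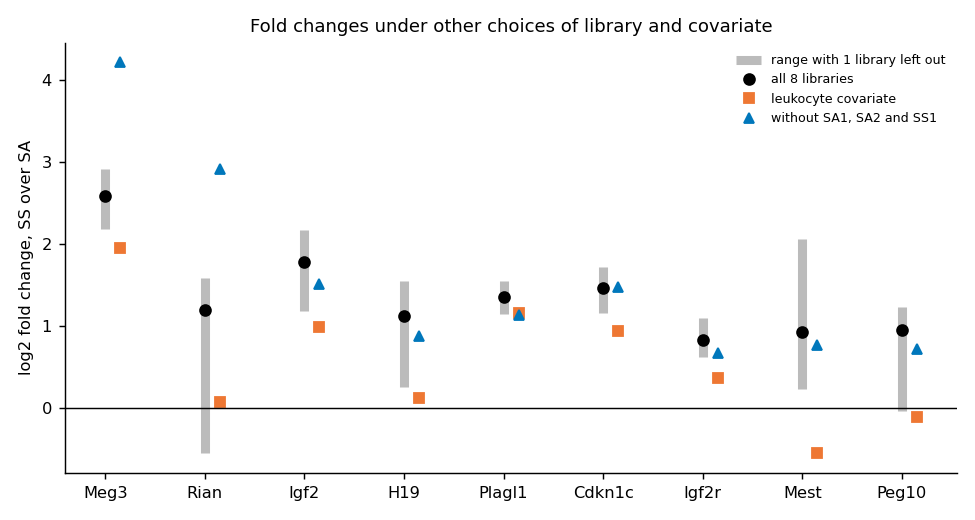
Log2 fold change of SS against SA for 9 imprinted genes from all 8 libraries (circles), with 1 library left out (grey range), with the leukocyte covariate (squares) and without SA mice 1 and 2 and SS mouse 1 (triangles). Plagl1 ranges from 1.15 to 1.55 with 1 library left out, while Rian crosses 0, to -0.55 without SS mouse 4.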

How the data were processed

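RNA from sorted bone marrow stromal cells of 4 SS and 4 SA mice was prepared with a low-input total RNA kit and sequenced on a HiSeq4000, per the labels' protocols. The values used are read counts, deposited unnormalised with 1 column a mouse. Named in the submitters' processing notes are the tools bcl2fastq, STAR, featureCounts and DESeq2 and the builds mm10 and GRCm38. Annotation, strand setting and versions: not given in the sources used here. Reads over exons shared with other genes are therefore uncertain. Such exons make up 8.3% of Meg3, 3.4% of Rian, 9.1% of H19, 30.7% of Cdkn1c, 23.1% of Mest and 22.0% of Gnas. The authors' normalised table was not used.

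The counts were fitted in edgeR 4.0.16 (R 4.3.3) by the quasi-likelihood test with genotype as the term, TMM scaling, the filterByExpr filter on low counts (17316 genes kept) and Benjamini-Hochberg adjustment over all of them, at a threshold of 0.05. DESeq2 1.42.0 was an alternative. The scripts were tested on simulated data. CPM values use the TMM-scaled total. Log2 CPM for ratios and correlations used a prior count of 2, and the exact tests went through all 40320 pairings or 70 arrangements. Ranks and the Benjamini-Hochberg adjustment over the pairs used scipy 1.17.1. In the Meg3 cluster the exact tests could be run only for Meg3 and Rian, since Mirg, Dlk1 and Rtl1 did not pass the filter. The leukocyte covariate was the mean log2 CPM of 15 leukocyte genes in a library, centred over the libraries. Positions are from GENCODE M21 on GRCm38, in which 91.5% of the table's symbols were found. RefSeq gave a start window for 25 of the 34 genes.

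The members, gene lists and tests were chosen with earlier results of these data known. By the rule for named genes, every member is accounted for. Each member of the Meg3 cluster, of a mean of at least 5 CPM or of an unadjusted p under 0.05 is given in every library, the others by counts or ranges. Of 3 further lists the 3 genes of smallest p are named, as are the 10 genes most like Meg3. Pairs of neighbours outside the Meg3 cluster, and the row Gm37899, were added after the data were seen. Counts limit precision: the limit of 3 counts covers counting error only. The SEs of the edgeR fit and the SDs also include the spread between mice. Each such SE was derived as the absolute log2 fold change divided by the square root of the quasi-likelihood F statistic.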

Additional observations from a re-analysis of the deposited data

Results flagged for a closer look

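Of 50 sets of 4 libraries examined for a value far from the rest, 3 had one, and chance gives about 1 in 20. Rian in SS mouse 4 was at 44.2 CPM, with the other SS mice at 3.11 to 5.68 CPM. Peg10 in SS mouse 4 was at 53.9 CPM, with the other SS mice at 9.44 to 13.9 CPM. Cdkn1c in SS mouse 1 was at 14.3 CPM, below the other SS mice at 38.1 to 41.9 CPM.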

How the results depend on the processing

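The edgeR count of genes called was 0 over all 17316. It was 315 with DESeq2, 5 with no low-count filter and 0 to 1 with each library left out (1 without SS mouse 1). The count of imprinted genes called was 0 with every edgeR setting run and 2 with DESeq2, Igf2 (log2 fold change 1.77) and Plagl1 (1.35). DESeq2 was not run with libraries left out. Across the 14 alternatives, 8 of the 25 tested members turned in direction under at least 1, and Peg3 reached 0.0. The leukocyte covariate turned Airn to -0.099, Mest to -0.544 and Peg10 to -0.109, and leaving out the 3 leukocyte-rich libraries turned Airn to -0.105 and Sgce to -0.05. With 1 library left out, the log2 fold change ranged from -0.548 to 1.593 for Rian, -0.084 to 0.297 for Airn, -0.085 to 0.706 for Ndn, -0.602 to 0.367 for Snrpn, -0.03 to 1.236 for Peg10 and -0.339 to 0.346 for Zrsr1. Peg13 and Trappc9 had r = -0.032 without 2 libraries and 0.879 relative to stromal markers. Without the leukocyte-rich libraries Asb4 went from 0.75 to 0.122 and Trappc9 from -0.60 to -0.158, and without SA mouse 4 Asb4 was 1.409 and Slc38a4 2.359. Without SS mouse 4 Slc38a4 was 0.796 and Ppp1r9a 0.012. The cause of these was not tested. With the replicate block, 0 genes were called by edgeR (1255 at an unadjusted p under 0.05) and Zrsr1 was at 0.203. The replicate numbers did not pair the mice: deviations of same-numbered libraries correlated at 0.222, -0.150, -0.0201 and 0.143, and 3 of 8 libraries correlated best with their own number. The low-count filter left out 9 members. With no filter 32 of the 34 were tested and none was called. DESeq2 gave adjusted p of 0.635 for Mirg, 0.457 for Rtl1 and 0.376 for Nap1l5. Zim1 had 633 reads, most of them in 1 library. Depth limited Dlk1, Phlda2, Usp29, Magel2 and Kcnk9, with 0 to 5 reads in all.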

Other observations

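Among imprinted, imprint-keeping and flanking genes outside the set, a few had their reads in few libraries. Dio3, the deiodinase gene at the far end of the Meg3 locus, had 36 reads in SS mouse 2, 5 in SS mouse 4 and 0 elsewhere. Dppa3, which protects imprints in the early embryo, had 49 reads in SS mouse 1, 6 in SS mouse 4 and 0 elsewhere. Begain, which flanks Dlk1, had 77 reads in SA mouse 1, 8 in SA mouse 3, 1 and 2 in SS mice 1 and 2 and 0 elsewhere. None of the 3 passed the low-count filter.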
